A study of Mus musculus with 8 samples.

Results

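The cytosolic ribosomal protein genes were the array probes whose gene name in the scanner files began with Rpl or Rps and a number, with Rplp and a number, or with Rpsa. The S6 kinase genes and names marked as binding proteins, as paralogues ending in l1 or as pseudogenes were left out. The rule found 131 probes for 79 genes, of 28787 genes named in the scanner files. Of the 79 genes, 47 code for proteins of the large ribosomal subunit and 32 for proteins of the small subunit. Their probes lay on 19 chromosomes of the mouse build mm7. Where a gene had more than 1 probe, the brightest that passed the filters given below stood for it.

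The cytosolic ribosome is built from ribosomal RNA and one copy each of most ribosomal proteins, so a cell needs these proteins in matched amounts. The small subunit holds the mRNA and reads codons, and the large subunit joins amino acids and carries the stalk that recruits elongation factors. Many of these mRNAs start with a cytosine followed by a run of pyrimidines, the 5′ terminal oligopyrimidine tract, through which mTOR signalling and Larp1 regulate their translation and stability. Several free ribosomal proteins bind Mdm2, the ubiquitin ligase of p53. In monocytes, as in most cells, ribosomal protein mRNAs are among the abundant transcripts.

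Ly-6C-high monocytes, short-lived phagocytes that enter inflamed tissue, were sorted from blood and from spleen of untreated, healthy, chow-fed female C57BL/6 mice aged 8 to 12 weeks. Each of the 8 samples held 1000 cells with much CD11b and Ly-6C on their surface and little of T cell, B cell, NK cell, granulocyte, macrophage and dendritic cell antigens. The RNA had an integrity number of at least 8, and 5 ng was amplified, labelled with Cy3 and hybridised to a 1-colour Agilent array. The blood group and the spleen group had 4 arrays each, numbered 1 to 4. The design text speaks of cells from each of 4 mice, but no label ties a number to a mouse, so the p-values rest on the spread among samples, which may in part be technical. Of the listed Ly-6C-high monocyte markers, 11 were named on the arrays and 9 were measured above background, among them Ly6c1, Ccr2, Csf1r and Itgam.

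All values below are log2 values of the authors' table unless another source is named, and differences are spleen minus blood. All 8 columns of the table have nearly the same median, 7.31, so a change shared by most genes would not be visible, and less RNA per cell cannot be told apart from fewer expressing cells. A level depends on the probe as well as on the RNA, so levels of different genes are not ranked. Probes ranked differently in the scanner files of blood 1, 2 and 3 than in their table columns (rank correlations 0.842, 0.852 and 0.872), while the correlations of the other 5 arrays rounded to 1. Values on these 5 arrays alone, 1 of blood and 4 of spleen, are given after the single genes.

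The ribosomal protein genes were at closely similar levels in the monocytes of both tissues. A gene was tested when a probe with 3 or more values in each tissue reached the background level of 6.8 on at least 4 arrays, which 65 of the 79 members passed, 37 of the large and 28 of the small subunit. By limma (lmFit and eBayes, Benjamini-Hochberg adjustment over 18267 genes) 0 of the 65 had an adjusted p under 0.05, and 0% of all tested genes did. At an unadjusted p under 0.05, limma gave 1 of the 65 members, Rpl28, beside 5.43% of all tested genes. The median difference was -0.053 over the 37 large subunit genes and 0.0055 over the 28 small subunit genes, beside -0.0081 over all tested genes. In the large subunit 16 genes were higher and 21 lower in spleen, and in the small subunit 14 were higher and 14 lower. The difference was under 0.2 in size for 46 of the 65 genes and under 0.3 for 59.

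The precision behind these small differences was higher than for most genes. For 59 of the 65 members (90.8%) the 95% interval of the difference lay within a 2-fold change in either direction, beside 55.1% of all tested genes. Among the 53 members with a mean of 12 or above it did so for all 53, beside 83.2% of all 1434 tested genes at 12 or above. These sets were not matched for brightness, with a median level of 13.98 for the members and 12.85 for all 1434 genes. The intervals that reached 2-fold were those of Rpl14, Rpl31, Rpl37, Rps12, Rps27l and Rpsa. Of the 65 members 0 differed by 2-fold or more, which 3.22% of all tested genes did. The median SD between replicates was 0.19 in blood and 0.25 in spleen for the members, 0.41 and 0.42 over all tested genes, and 0.27 and 0.28 over those at 12 or above.

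**Figure D1:**
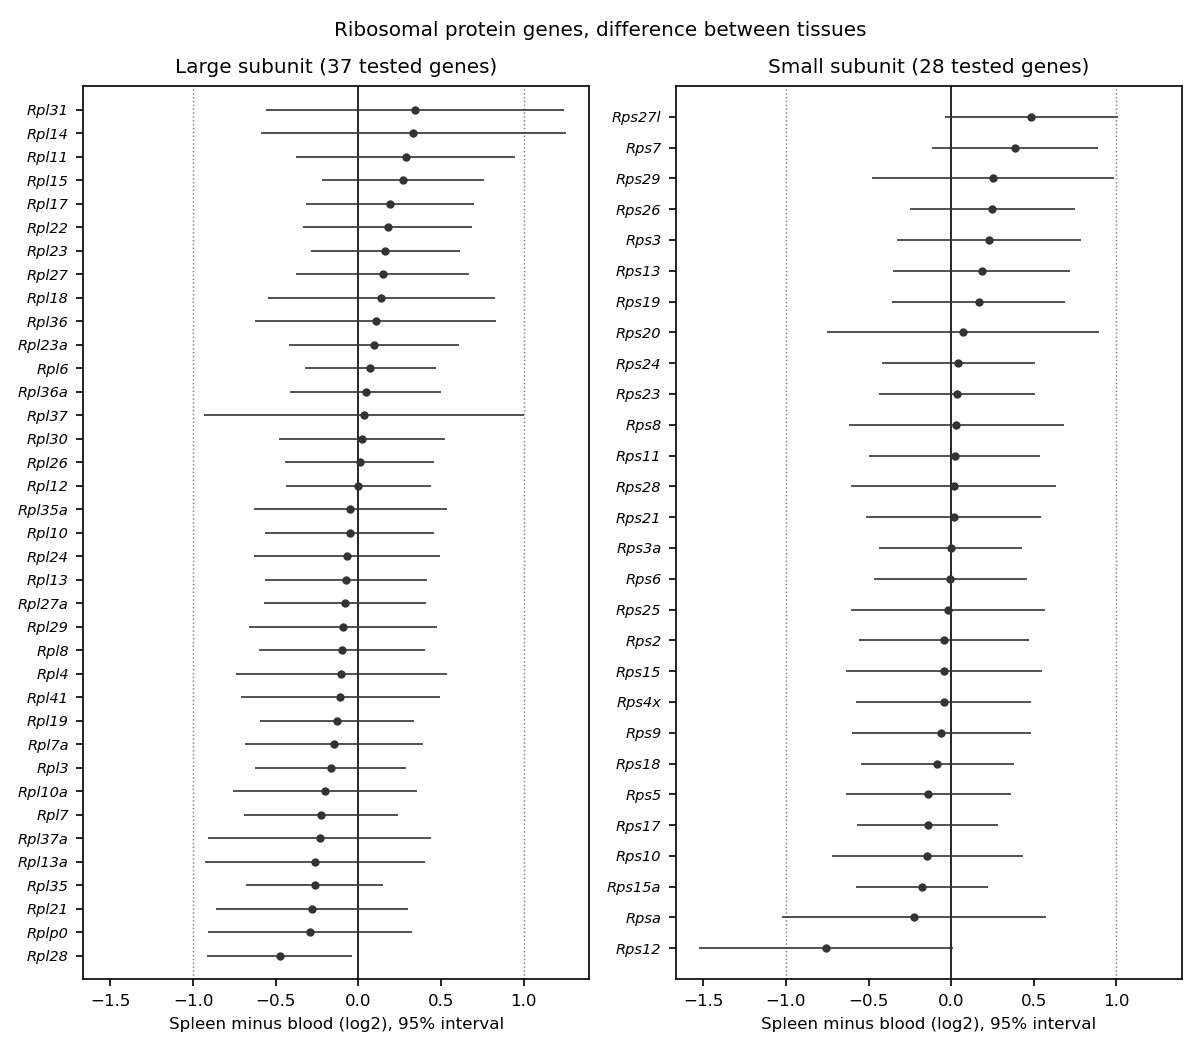
Difference between spleen and blood (log2, horizontal axis) with its 95% interval from limma for the 37 large subunit genes (left) and 28 small subunit genes (right) that were tested, sorted by size; dotted lines mark a 2-fold change. The points scatter around 0, and the interval of 1 gene, Rpl28, excludes 0.

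In 5 of the 65 genes (7.69%) the values of the tissues did not overlap, beside 3.3% of all tested genes and 5.02% of those at 12 or above. The 3 genes lower in every spleen sample than in any blood sample were Rpl28, Rpl35 and Rps15a, beside 1.41% of all tested genes. The 2 that were higher were Rps27l and Rps13, beside 1.88% of all tested genes. All 5 kept an adjusted p of 0.855 or more by limma. Rps13 had 3 values per tissue in place of 4, and fewer values separate more easily.

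Among the large subunit genes, Rpl28 showed the lowest difference. Rpl28 codes for a protein of the outer large subunit that budding yeast lacks, and its probe lies at chr7:4367685-4367744 on the plus strand of mm7. Its values were 12.23, 12.23, 12.57 and 12.34 in blood 1 to 4 and 12.04, 11.70, 11.75 and 11.98 in spleen 1 to 4. The groups did not overlap, and the highest spleen value lay below the lowest blood value. The blood mean was 12.34 ± 0.16 and the spleen mean 11.87 ± 0.17 (SD, n = 4 each), a difference of -0.48 ± 0.20 (SE), or 1.39-fold lower in spleen. Its 95% interval ran from -0.92 to -0.04, and the adjusted p by limma was 0.855. Spleen 4 and blood 4, which shared a slide, differed by -0.36.

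Rpl35 codes for a protein at the exit of the tunnel through which the new peptide leaves. It was at 14.10, 13.76, 13.80 and 13.90 in the blood samples and at 13.60, 13.71, 13.62 and 13.57 in the spleen samples. The groups were separate, by a gap smaller than the spread among the blood samples. The difference was -0.26 ± 0.18 (SE, n = 4 per tissue), with a 95% interval from -0.68 to 0.15.

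The other large subunit genes with the largest differences had overlapping groups. Rpl31 was at 10.67, 10.87, 9.21 and 9.42 in blood and at 9.97, 10.36, 10.45 and 10.75 in spleen, with blood 3 and blood 4 the lowest and a difference of 0.34 ± 0.40 (SE). Rpl14 ranged from 8.38 to 9.51 in blood and from 8.40 to 10.33 in spleen, with a difference of 0.33 ± 0.41 (SE) that turned sign in 4 of 21 alternatives, all of them with the scanner files or the 5 matching arrays (lowest -0.38). Rpl21 ranged from 12.66 to 13.42 in blood and from 12.52 to 13.12 in spleen, with a difference of -0.28 ± 0.26 (SE). At the other end, Rpl6 varied by 0.23 over all 8 arrays, the narrowest range of any large subunit gene with 8 values, and differed by 0.07 ± 0.18 (SE).

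Rpl5 and Rpl11 join 5S ribosomal RNA in the particle that binds Mdm2. Rpl5 had 2 values in blood, 15.02 and 14.98, and 3 in spleen, 14.86, 14.88 and 15.05, too few for the filter, and the values overlapped. Rpl11 was at 14.40, 14.52 and 14.49 in blood 1 to 3 and at 14.69, 15.19 and 14.39 in spleen 1, 2 and 4. Spleen 2 was the highest, spleen 1 also lay above the blood values and spleen 4 below them. The difference was 0.29 ± 0.28 (SE, n = 3 per tissue). Its second, dimmer probe gave a difference of -0.08. Of their partners among the listed regulators, Mdm2 differed by -0.04 ± 0.31 (SE) and Trp53, the p53 gene, by -0.05 ± 0.32 (SE).

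Rplp0, Rplp1 and Rplp2 form the stalk of the large subunit. The probe named Rplp0 was at 11.58, 11.24, 11.74 and 11.57 in blood and at 10.55, 11.33, 11.73 and 11.36 in spleen. Spleen 1 was low and the other spleen values lay among those of blood, and the difference was -0.29 ± 0.28 (SE, n = 4 per tissue). This probe lies on chromosome 8 of mm7, while RefSeq places the start of Rplp0 on chromosome 5 (build GRCm38.p6). Whether the probe reads Rplp0 or another sequence was not tested. RefSeq gave the symbol Rplp0 to the probes that the scanner files name Arbp, which the rule missed. These differed by 0.15 over 3 values per tissue, from 14.97 ± 0.25 (SD) in blood to 15.11 ± 0.45 (SD) in spleen, and by -0.15 over 3 blood and 4 spleen values. The 3 probes thus did not share a direction. Rplp1 had 1 value, 15.54 in spleen 3, and Rplp2 had 3, 15.75 and 15.90 in blood 3 and 4 and 15.90 in spleen 4.

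Among the small subunit genes, Rps27l had the highest difference. It codes for a paralogue of Rps27 that p53 induces, and its probe sequence falls on chr9:66979145-66980835 on the plus strand of mm7. It was at 11.26, 10.91, 11.27 and 11.30 in blood and at 11.76, 12.12, 11.31 and 11.49 in spleen. The groups did not overlap, but spleen 3 lay only just above the highest blood value. The means were 11.18 ± 0.18 (SD, n = 4) and 11.67 ± 0.35 (SD, n = 4), a difference of 0.49 ± 0.23 (SE) or 1.40-fold. Its 95% interval ran from -0.04 to 1.01, and the adjusted p by limma was 0.941. Spleen 4 minus blood 4, on a shared slide, was 0.19. The parent gene Rps27 had values on 3 arrays, 15.26, 15.21 and 15.16 in spleen 2, 3 and 4, so the paralogues could not be compared in blood. Their 60-base probes shared no run longer than 6 bases.

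Rps7, whose protein also binds Mdm2, was at 13.73, 14.12, 13.82 and 14.20 in blood and at 14.61, 14.44, 13.96 and 14.41 in spleen. Spleen 3 lay among the blood values and the other 3 above them all. The difference was 0.39 ± 0.22 (SE, n = 4 per tissue), with a 95% interval from -0.12 to 0.89. Rps13, a protein conserved in bacteria, was at 14.28, 14.11 and 14.26 in blood 1 to 3 and at 14.41, 14.46 and 14.33 in spleen 2 to 4. These groups were separate, with a difference of 0.19 ± 0.23 (SE, n = 3 per tissue). Its dimmer second probe, with 8 values, gave -0.37.

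Rps15a, also a protein of a family shared with bacteria, was at 13.46, 13.38, 13.51 and 13.28 in blood and at 13.28, 13.26, 13.23 and 13.17 in spleen. Blood 4 and spleen 1 were equal to this rounding, so the separation was by less than 0.01. The difference was -0.17 ± 0.18 (SE, n = 4 per tissue). Rps29, a zinc-binding protein, ranged from 14.56 to 15.03 over 3 blood values and from 14.75 to 15.61 over 3 spleen values, with a difference of 0.25 ± 0.31 (SE).

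Rps6, the protein that S6 kinases phosphorylate downstream of mTOR, was at 13.78, 13.22, 13.32 and 13.36 in blood and at 13.40, 13.26, 13.60 and 13.39 in spleen. Blood 1 was the highest and the other 7 values overlapped. The difference was -0.01 ± 0.21 (SE, n = 4 per tissue), with a 95% interval from -0.47 to 0.46. Rpsa, which also serves as the precursor of a laminin receptor, was at 11.02, 10.92, 11.69 and 11.56 in blood and at 11.42, 11.75, 10.18 and 10.95 in spleen. Spleen 3 was low, and the difference was -0.22 ± 0.36 (SE, n = 4 per tissue). Its second probe differed by 0.35, and the gap of 0.57 between its probes was the largest among the 26 genes with several kept probes, whose median gap was 0.23. Rps27a, made as a fusion with ubiquitin, had values on 4 arrays, 14.87 in blood 3 and 15.31, 15.18 and 15.09 in spleen 1, 2 and 4.

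Rpl3l, the paralogue of Rpl3 used in heart and skeletal muscle, was the only member below the background level on enough arrays to be left out for that reason. It lay between 6.36 and 6.60 on 7 arrays and at 7.82 in spleen 4. Rpl3 itself differed by -0.17 ± 0.20 (SE, n = 4 per tissue).

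On the 5 matching arrays alone several of these differences had another size or sign, and each rested on blood 4 as the single blood array. In the table, Rpl31 differed there by 0.97 ± 0.41 (SE) in place of 0.34, Rpl21 by -0.65 ± 0.38 (SE) in place of -0.28 and Rpsa by -0.48 ± 0.62 (SE) in place of -0.22. Rpl14 was at -0.14 ± 0.70 (SE), Rps7 at 0.15 ± 0.39 (SE) and Rps15a at -0.047 ± 0.33 (SE). Rps29 was at 0.086 ± 0.49 (SE). Rpl11 and Rps13 had to be read from their dimmer probes, which gave -0.13 ± 0.57 (SE) and -0.88 ± 0.95 (SE). With the scanner signals of these arrays, which keep the brighter probes, they gave 0.16 ± 0.46 (SE) and 0.034 ± 0.47 (SE). Rpl28, Rpl35, Rps27l and the probe named Rplp0 were close to their values over 8 arrays, at -0.48, -0.27, 0.37 and -0.33. The spleen values are the same in both, so this shows only that blood 4 lay near the blood mean of these genes. Limma called 0 members on these arrays, where 1 blood array leaves little power.

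**Figure D2:**
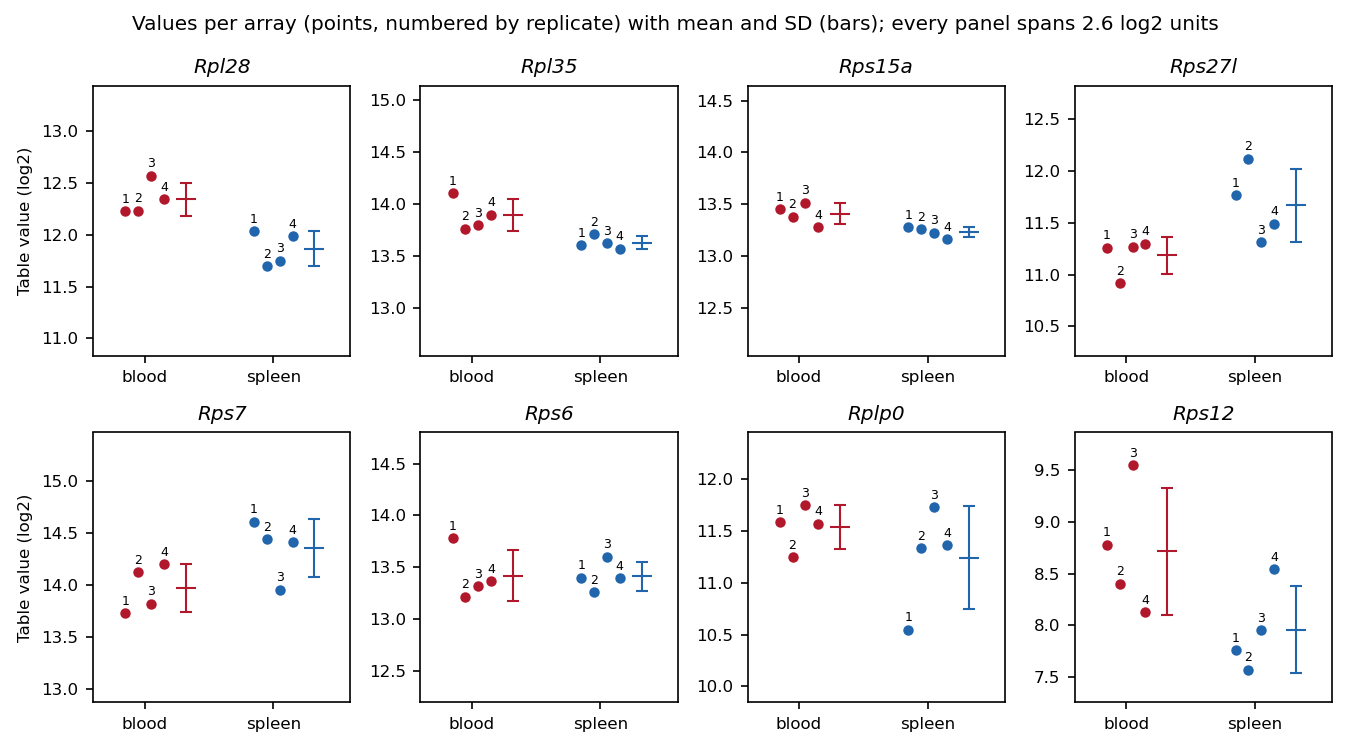
Table values (log2, vertical axis, each panel spanning 2.6 units) of 8 named genes in the 4 blood arrays (red) and 4 spleen arrays (blue), with points numbered by replicate and bars for the mean and SD. Rpl28, Rpl35 and Rps15a lie lower in spleen without overlap, Rps27l higher without overlap, and the groups of the other 4 genes overlap.

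Pyrimidine runs, which the name rule did not use, were frequent at the starts of these genes. RefSeq promoter windows (build GRCm38.p6, 250 bases before to 50 after the annotated start) matched 59 of the 79 genes. In 19 of the 59 (32.2%) an annotated start base lay inside a run of at least 5 pyrimidines, beside 11.8% of all 27025 genes in the same table. In 13 of the 59 the start base was C followed by at least 4 pyrimidines, as in 813 of the 27025 genes (3.01%). The motif CCGGAAG, on either strand and anywhere in the 300 bases, was found in 24 of the 59 (40.7%) and in 9.93% of all genes. The 30 bases around the start are shown for some of the genes whose values are given above, mostly ones with a run. The run that holds the start base, which is base 16, is in capitals.
Rpl28, chr7:4792950-4792979, plus strand: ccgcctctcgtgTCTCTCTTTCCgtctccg
Rpl35, chr2:39005117-39005146, minus strand: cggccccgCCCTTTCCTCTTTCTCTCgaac
Rps15a, chr7:118116133-118116162, minus strand: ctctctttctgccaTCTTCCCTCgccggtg
Rps6, chr4:86857353-86857382, minus strand: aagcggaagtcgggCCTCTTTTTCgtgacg
Rps27, chr3:90213634-90213663, minus strand: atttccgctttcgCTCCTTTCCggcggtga
Rps27l, chr9:66946071-66946100, plus strand: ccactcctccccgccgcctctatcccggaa

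The 3 named genes that were lower in spleen without overlap, Rpl28, Rpl35 and Rps15a, all had such a run at the start, and so did Rps6, whose difference was near 0. Rpl31 and Rpl14, which had the highest differences of the large subunit (0.34 and 0.33), had such a run too. No such run was found for Rps12, Rpsa and Rplp0, whose probes were lower in spleen (-0.76, -0.22 and -0.29). It was also absent from Rpl11, Rps7 and Rps13, which were higher (0.29, 0.39 and 0.19). Rps27 had the run and its paralogue Rps27l did not at either of its annotated starts, the first of which is shown. Over the tested genes with a matched window, the median difference was -0.06 for the 15 with the run at the start (5 higher and 10 lower in spleen) and -0.00048 for the 35 without it (17 higher and 18 lower). No test was made of this split, and a match of letters is not evidence that a factor binds there.

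Larp1, which binds the pyrimidine tract at the cap, differed by -0.07 ± 0.31 (SE). In the list of regulators of ribosomal protein genes, 1 of 11 tested genes had an unadjusted p under 0.05, beside the 5.43% of all tested genes. This was Rptor, the subunit that gives mTOR complex 1 its substrates. Rptor was at 9.18, 8.88 and 9.08 in blood 1 to 3 and at 7.69, 7.66 and 8.16 in spleen 2 to 4. Its groups did not overlap, and its difference was -1.21 ± 0.26 (SE, n = 3 per tissue), with an adjusted p of 0.448 by limma. Fewer values separate more easily. Blood 4 had no value, so the blood values all came from arrays whose scanner files do not match the table. Mtor differed by 0.30 ± 0.37 (SE), Rps6kb1, an S6 kinase, by -0.00063 ± 0.49 (SE) and Rps6kb2, the other S6 kinase, by -0.60 ± 0.35 (SE). Myc, a transcription factor that drives ribosome production, differed by 0.13 ± 0.47 (SE).

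Ribosomal protein probes had many empty cells in the table, as did other probes of the same brightness. Of the 1048 cells of member probes 139 (13.3%) were empty, beside 2.05% of all 329392 cells. Below 14 they made up at most 5% of member cells and 7.06% of the others in any class of brightness. Between 14 and 15 they made up 22.7% of member cells and 21.8% of the others, and at 15 or more 38.8% and 41.9%. In the 5 arrays whose scanner files matched, 89 of 89 empty member cells lay on spots that the scanner software had marked as background outliers, as did 3 of 566 filled ones. No spot was saturated.

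**Figure D3:**
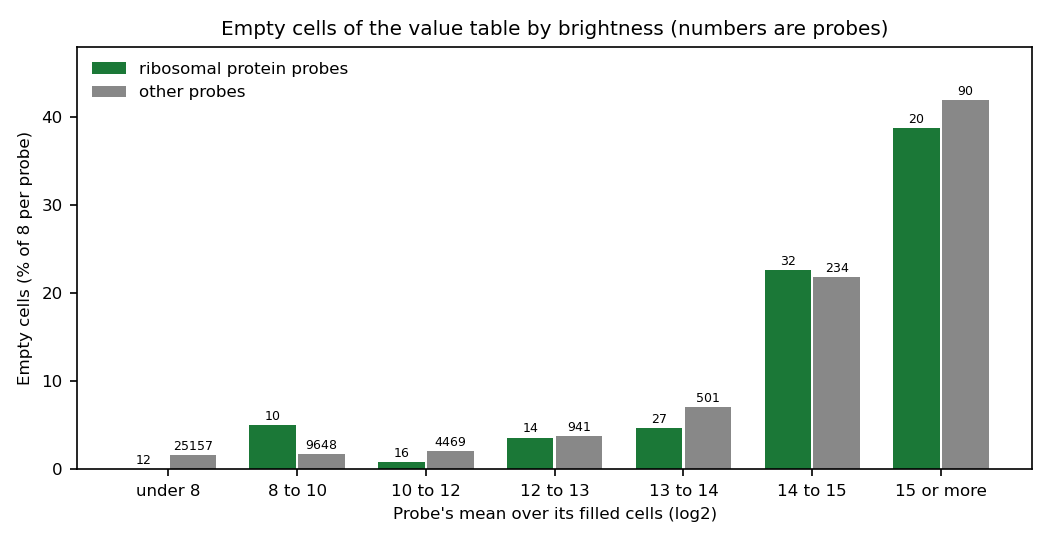
Share of empty cells in the authors' table (percent of the 8 cells of each probe, vertical axis) by the mean of a probe's filled cells (log2, horizontal axis), for ribosomal protein probes (green) and all other probes (grey), with the number of probes above each bar. Member probes stay at or under 5% below 14 and other probes at or under 7.06%, and both are highest in the brightest class, at 38.8% and 41.9%.

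These gaps decided which genes could be tested and by which probe. They left 13 members with too few values, 9 of the large subunit, among them Rpl5, Rplp1 and Rplp2, and 4 of the small, among them Rps27 and Rps27a, all with means from 13.99 to 15.85. The scanner's own signals, which have no gaps, gave these 13 differences from -0.25 to 0.13 on the 5 matching arrays (log2 of the background-subtracted signal minus the 75th percentile of each array). Their median was -0.09, from 1 blood and 4 spleen arrays, and spleen exceeded blood in 2 of the 13 and fell below it in 11. For the 65 tested members the same signals had a median of -0.0092, 32 of them above blood and 33 below. All these signs rest on blood 4, and the split over all genes was not counted. In that fit limma called 0 of 78 members, and 0 had an unadjusted p under 0.05, with the single blood array assumed to vary like the spleen arrays. With at least 2 values per tissue in place of 3, an alternative chosen after seeing the data, 71 members could be tested and limma called 0.

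For 10 of the 65 tested genes a dimmer probe stood in for a brighter one with too few values. Rps12, a protein of the beak of the small subunit, had the lowest difference of all members and was such a case. Its dimmer probe was at 8.78, 8.40, 9.54 and 8.13 in blood and at 7.76, 7.57, 7.96 and 8.54 in spleen. Blood 3 was high and spleen 4 lay among the blood values, and the difference was -0.76 ± 0.34 (SE, n = 4 per tissue), with a 95% interval from -1.52 to 0.01 and an adjusted p of 0.931 by limma. Its brighter probe had 3 values, 15.66 and 15.54 in blood 1 and 3 and 15.62 in spleen 3, which differed by 0.02. On the 5 matching arrays the dimmer probe differed by -0.17 ± 0.46 (SE) in the table, and the brighter probe by 0.081 ± 0.50 (SE) in the scanner signals. On the shared slide, the dimmer probe was 0.41 higher in spleen 4 than in blood 4. Both probes lie on the minus strand of mm7, and they shared no run longer than 5 bases. Their first 30 of 60 bases are shown because the difference of Rps12 depends on which one is read.
Rps12, brighter probe, chr10:23538288-23538347: atggcaaagaatctcaggccaaggatgtca
Rps12, dimmer probe, chr10:23539315-23539374: tctactgtttgaggtaaagtcaggtgattt

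Rps20 and Rpl37 were in the same position. The dim probe of Rps20 ranged from 8.03 to 9.56 and differed by 0.07 ± 0.36 (SE). Against blood 4 alone it was higher in spleen, by 0.96 in spleen 4 and by 1.17 in the scanner signals of the 5 matching arrays. Its bright probe had values of 16.10 in blood 3 and 16.57 and 16.05 in spleen 2 and 3. The dim probe of Rpl37 ranged from 6.22 to 7.71, across the background level, and differed by 0.03 ± 0.43 (SE). Against blood 4 alone it differed by -1.12 in spleen 4 and by -2.24 in the scanner signals of the 5 matching arrays. The bright probe of Rpl37 had means of 14.59 over 4 blood and 14.73 over 2 spleen values.

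Across arrays, the ribosomal protein genes departed together from their means mainly in spleen 3. Each gene's deviation from its own mean over arrays was taken, and the median over the members was 0.06, 0.01, -0.06 and 0.01 in blood 1 to 4 and 0.09, 0.13, -0.20 and -0.03 in spleen 1 to 4. Spleen 3 was thus the lowest array and spleen 2 the highest. In spleen 3, 8 of 62 members (12.9%) lay above their own mean, beside 42.7% of all tested genes and 35.8% of the other genes at 12 or above, and it was the lowest array for 22 members. In spleen 2, 43 of 62 lay above it, and on the other arrays between 38.7% and 62.7% of members did. The large and small subunits shared this, with medians of -0.23 and -0.17 in spleen 3. Other genes at 12 or above had medians of -0.10 in spleen 3, -0.12 in blood 3, 0.12 in blood 1 and 0.14 in spleen 1. Without spleen 3 the median difference was 0.056 for the large and 0.079 for the small subunit, and without spleen 2 it was -0.075 and -0.11, so the sign of both medians depends on single arrays.

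**Figure D4:**
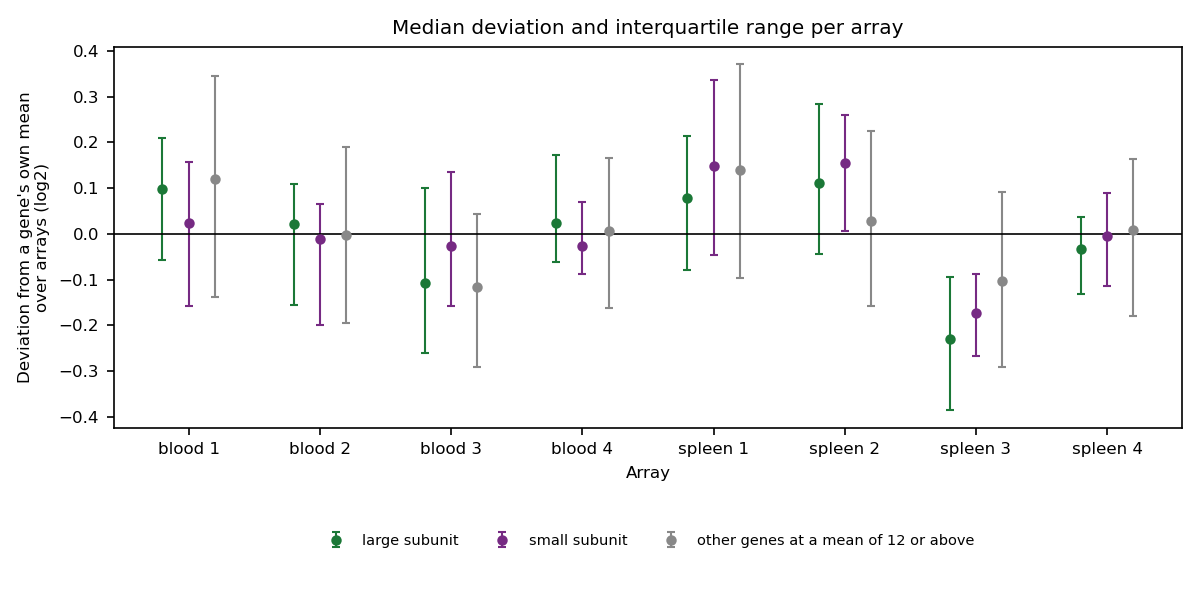
Deviation of each gene from its own mean over arrays (log2, vertical axis) in each array, as the median (point) and interquartile range (bar), for large subunit genes (green), small subunit genes (purple) and other genes with a mean of 12 or above (grey). Spleen 3 is the lowest array for both subunits, at -0.23 and -0.17, and the remaining array medians of both subunits lie between -0.11 and 0.16.

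Markers of some other cells differed between the same arrays. Of all tested genes, 48.8% were higher in spleen. Of 14 listed markers of dividing cells that were named on the arrays, 10 were tested and 10 were higher in spleen. Their median deviation ran from -1.23 to -0.43 in the blood arrays and from 0.12 to 1.75 in the spleen arrays, highest in spleen 3. Of 14 listed neutrophil markers that were named on the arrays, 12 were tested and 11 were higher in spleen. Their median deviations ran from -1.19 to -0.47 in blood and from 0.25 to 1.72 in spleen, again highest in spleen 3. Of the 9 measured Ly-6C-high monocyte markers 3 were higher and 6 lower in spleen. Their median deviation was -0.38 in spleen 3 and between -0.25 and 0.14 elsewhere. In the other lists, 5 of 7 T cell, 5 of 7 B cell and 3 of 3 NK cell markers were higher in spleen. So were 2 of 9 platelet and 1 of 5 erythroid markers. A marker could pass the filter through the arrays of a single tissue, which would then fix the direction of a dim marker. Mean levels went down to 6.87 among the tested neutrophil markers and 7.31 among those of dividing cells, near the background level of 6.8. How many markers passed in this way was not tested. The part of the marker differences in the ribosomal protein values was not tested.

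The single slide that held matching arrays of both tissues carried blood 4 and spleen 4. On it the median difference was -0.09 over 34 large subunit genes (12 higher, 22 lower) and -0.0046 over 26 small subunit genes (12 higher, 14 lower), beside -0.03 over 17861 genes.

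Ribosomal proteins that carry other names had differences of similar size. The probe named Gnb2l1, RefSeq symbol Rack1, a scaffold on the head of the small subunit, differed by -0.24 ± 0.21 (SE, n = 4 per tissue). Fau, a fusion of a ubiquitin-like protein with a small subunit protein, had 1 value. The probes named 1100001I22Rik, RefSeq symbol Rpl34, differed by 0.01 and -0.28. Among the paralogues that the rule left out, Rpl22l1 differed by -0.14 ± 0.22 (SE). Rpl7l1, at 9.15 ± 0.68 in blood and 8.20 ± 1.05 in spleen (SD, n = 4 each), differed by -0.95 ± 0.53 (SE), and its second probe by 0.08.

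Genes of the other translation machinery were counted in the same way, beside 48.8% of all tested genes higher in spleen and 5.43% at an unadjusted p under 0.05. Of 38 tested translation factors 25 were higher and 13 lower in spleen, with a median of 0.07 and 0 at an unadjusted p under 0.05 by limma. Eef1a1, which delivers aminoacyl-tRNA, differed by 0.06 ± 0.22 (SE), and Eef2, which moves the ribosome along the mRNA, by 0.01 ± 0.25 (SE). Of 56 tested genes of ribosome assembly and RNA polymerase I, 35 were higher in spleen and 21 lower. Their median was 0.13, and 4 (7.14%) had an unadjusted p under 0.05 by limma, a share near that of all tested genes. Npm1, a nucleolar chaperone of assembly, differed by 0.28 ± 0.22 (SE). Of 78 tested mitochondrial ribosomal protein genes 40 were higher in spleen and 38 lower. Their median was 0.03, and 5 (6.41%) had an unadjusted p under 0.05 by limma, again near that share. Their differences ran from -1.29 for Mrpl49 to 0.87 for Mrpl52, while those of the cytosolic ribosomal protein genes ran from -0.76 to 0.49. In limma, 0 genes of these 3 lists had an adjusted p under 0.05, and the smallest was 0.717.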

How the data were processed

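Per the file headers, the scanner files hold spot intensity values from Agilent Feature Extraction 9.5.1.1 (1 colour, probe positions on mm7). The log2 table is the authors' own deposit for all 8 arrays. The submitters' processing notes name limma, with version and settings not given in the sources used here. In the 5 matching arrays its ranks equal those of the median spot signal, and its columns share a distribution, so it is read as quantile-normalized without background subtraction, which narrows differences of dim probes. Of 41174 probes, 22951 were named by RefSeq accession and 25471 passed the filter. Spleen was compared with blood by limma 3.58.1 in R 4.3.3 (with version 1.17.8 of the data.table package) without a block, and p-values were Benjamini-Hochberg adjusted at 0.05. The code was tested on simulated data. The number of arrays limits the precision. Genes named with values were those with an unadjusted p under 0.05 or separate groups, the 3 highest and 3 lowest differences per subunit, those below background, and 9 chosen for their role, besides a few chosen after their values were seen (Rpl6, Rpl3, Rpl37, Rps20). The members and all gene lists were chosen with earlier results of these data known. Pairing by replicate number was checked. Deviations of same-numbered samples correlated at 0.091 to 0.14. Each of these lay above every correlation between differently numbered samples, which ran from -0.12 to 0.033. Samples with the same number may thus share something, but no label says so, and the main fit has no block. Fits with a replicate block are given below. Python 3.11.15, pandas 2.3.3 and matplotlib 3.10.9 made the summaries and figures. Values of 2 genes are not reported here.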

Additional observations from a re-analysis of the deposited data

Results flagged for a closer look

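Rps27l in blood 2, at 10.91, stood apart from the other 3 blood values, which lay between 11.26 and 11.30. It was found by a test of the gap between the lowest sample and the nearest other value, relative to the range of the group. Of 28 groups of 4 values among the named genes, 1 was found in this way, and chance gives about 1 in 20, or 1.4. Without blood 2 the groups of Rps27l would still not overlap, since the lowest spleen value is 11.31.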

How the results depend on the processing

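Limma called 0 ribosomal protein genes in each of 22 settings. The lowest adjusted p by limma among the named genes was 0.517, while the count over all genes ran from 0 to 13. The 2 fits on the 5 matching arrays had 1 blood array, could hardly call any gene and say nothing about stability. The count over all genes was 4 with the scanner files of all 8 arrays (75th percentile, or normexp and quantile), 7 with a gene's probes averaged, 8 with an intensity trend and 9 with array weights. The small subunit median moved from 0.0055 to -0.13 in both scanner settings with all 8 arrays, whose blood 1 to 3 files do not match the table. Leaving out 1 array gave medians from -0.08 (without spleen 2) to 0.06 (without spleen 3) for the large and from -0.11 (without spleen 2) to 0.079 (without spleen 3) for the small subunit, and 0 to 3 called genes among all tested. Rpl11 changed sign to -0.041 and -0.10 with those scanner settings, -0.13 with the table's 5 matching arrays, which read its dimmer probe, and -0.028 with its probes averaged, and Rps12 to 0.081 with the scanner files of the 5 matching arrays, which read its brighter probe. The causes of the other changes were not tested. A sign change was counted only where a difference exceeded its SE on either side, which held for 5 of 315 values, and 25 changed sign in all. With a fixed replicate block limma called 0 members and 1 gene of all tested. With a random replicate block (correlation 0.21) it called 0 members and 13 genes of all tested, and the medians were -0.048 and -0.0043. The slide as a random block could not be fitted, since only 1 slide held 2 matching arrays. The smallest adjusted p for Rpl28 was 0.541, under the random block.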

Other observations

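A few genes of the wider lists had an unadjusted p under 0.05 by limma, none of them past the adjusted threshold. Mrps34, a mitochondrial ribosomal protein, was at 12.18 ± 0.14 in blood and 11.67 ± 0.32 in spleen (SD, n = 4 each), with no overlap and an adjusted p of 0.900 by limma. Mrpl45, another, was at 8.96 ± 0.48 in blood and 9.82 ± 0.22 in spleen (SD, n = 4 each), with an adjusted p of 0.717 by limma. Nip7 and Gnl3l, which act in ribosome assembly, differed by 0.86 ± 0.38 (SE) and 0.81 ± 0.28 (SE), each with overlapping groups. Of the 4 genes of the assembly list under that unadjusted p, 3 were higher and 1 was lower in spleen. Differences over the whole assembly list ran from -1.45 to 0.90.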
